A study of Rattus norvegicus with 24 samples.

Results

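Acot1 and Acot2 are acyl-CoA thioesterases, enzymes that split fatty acyl-CoA into free fatty acid and coenzyme A. The 2 genes were represented by 3 of the 8799 probe sets on the array, taken as every probe set whose annotation gives Acot1 or Acot2 as its single gene symbol; the annotation names 4736 genes in this way. Acot1 had 1 probe set, AB010428_s_at, and Acot2 had 2, AB010429_s_at and Y09333_at. The 2 probe sets with _s_ in their names are marked by the array's maker as shared by more than 1 transcript, so their signals may not be specific to one of these closely related genes. A further probe set, Y09333_g_at, is annotated to both genes and lies outside that choice. Its values are given only for comparison. The genes were selected on their differences between diabetic and control ventricles in earlier results of these same data. Those differences are therefore described here without a test.

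Acot1 is the cytosolic and Acot2 the mitochondrial member of a gene family that arose by duplication. In the heart, long-chain fatty acids are the main fuel, and activated acyl-CoA is either carried into mitochondria for beta-oxidation or stored. Thioesterases act against that activation. Both genes are textbook targets of PPAR-alpha, the fatty-acid-sensing nuclear receptor that also drives genes of fatty acid uptake and oxidation.

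The samples were ventricles of male Wistar rats. Diabetic animals had been injected with 65 mg/kg streptozotocin, a toxin of the pancreatic beta cells, and control animals with citrate buffer. Body weight at injection is given as 150 g for all animals. Tissue was taken 3, 28 or 42 days after injection, which gave 6 groups of 4 animals and 24 arrays. Per the submitters, the first day precedes cardiac symptoms, the second has diastolic dysfunction and the third has both diastolic and systolic dysfunction. No animal carried an engineered allele according to the labels. Blood glucose ran from 500 to 618 mg/dL in diabetic and from 108 to 140 mg/dL in control animals at day 3. It ran from 557 to 707 mg/dL in diabetic and from 103 to 127 mg/dL in control animals at day 28, and from 513 to 769 mg/dL in diabetic and from 103 to 156 mg/dL in control animals at day 42. Body weight was 144 to 157 g in diabetic and 156 to 181 g in control animals at day 3. It was 205 to 265 g in diabetic and 295 to 351 g in control animals at day 28. At day 42 it was 112 to 126 g in diabetic and 413 to 472 g in control animals. The diabetic animals of day 42 were thus lighter than those of both other days. Their ventricles weighed 0.35 to 0.4 g, against 0.5 to 0.65 g in diabetic animals at day 28.

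The values are MAS5 signals, linear intensities that the authors had scaled per array. Array medians lay between 322.7 and 444.7 intensity units, and arrays of the same group correlated at 0.938 to 0.975. The number of arrays limits the precision. Cardiomyocyte markers were high on every array, with 8 of 9 listed genes present on the array and summed signals between 405793 and 731215. Day 42 was scanned on 1 scan day, day 28 on 2 and day 3 on 3, with no scan day shared between study days, so scan day and study day cannot be told apart in any change over days. Diabetic and control arrays of a day did share scan days, except for 1 diabetic array of day 3 and 1 of day 28. Each of these was scanned on a day without control arrays.

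The genes lie next to each other on rat chromosome 6, with Acot4, Acot3 and Acot5, which were not analysed here, following after 1 other gene in the RefSeq order. The stretches from 250 bases before to 50 bases after each gene start, taken from RefSeq on build GRCr8, are shown because the genes are neighbours that differed in the same direction. Both lie on the plus strand, Acot1 at chr6:109367024-109367323 and Acot2 at chr6:109342590-109342889. Capitals mark CCAAT boxes, searched as CCAAT on both strands, so that ATTGG is a match on the minus strand.
Acot1: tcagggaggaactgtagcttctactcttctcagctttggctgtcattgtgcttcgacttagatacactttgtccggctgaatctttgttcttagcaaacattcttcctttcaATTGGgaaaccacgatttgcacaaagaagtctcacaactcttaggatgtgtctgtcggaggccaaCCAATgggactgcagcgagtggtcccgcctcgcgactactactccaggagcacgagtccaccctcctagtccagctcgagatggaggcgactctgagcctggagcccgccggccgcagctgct
Acot2: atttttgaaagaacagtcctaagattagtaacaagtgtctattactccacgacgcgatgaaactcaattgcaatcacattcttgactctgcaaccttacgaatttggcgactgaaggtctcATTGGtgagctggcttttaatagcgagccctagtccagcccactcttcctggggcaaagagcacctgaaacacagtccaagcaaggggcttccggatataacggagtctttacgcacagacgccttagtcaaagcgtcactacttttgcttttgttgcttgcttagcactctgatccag
Acot1 held 2 CCAAT matches, starting 138 and 73 bases before the gene start, and Acot2 held 1, starting 129 bases before it. Of 33469 rat promoters of the same length, 37.5% held at least 1. The PPAR half-site AGGTCA, present in 16.2% of promoters, and the DR1 element, a direct repeat of that half-site with 1 base of any kind between the copies, present in 0.0538%, were in neither window. Every DR1 match also contains the half-site. The TATA box TATAAA (14.2% of promoters) and the GC box GGGCGG (33.1%) were in neither window either. The best partial DR1 match had 8 of 12 fixed letters in each gene, a match that 80.3% of promoters equalled or exceeded. Aligned end to end, 122 of the 300 bases of Acot1 were identical in Acot2, 40.7%.

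Acot1 had low signals in control ventricles and much higher signals in diabetic ventricles at every day. At day 3 it measured 1303.6, 625.4, 1073.2 and 142.5 intensity units on the 4 diabetic arrays, against 75.1, 18.8, 28.5 and 80.2 on the 4 control arrays. One diabetic array, at 142.5, lay well under the other 3, yet all diabetic arrays lay above all control arrays. At day 28 it measured 838.3, 799.2, 1965.5 and 1878.3 in diabetic arrays, against 148.1, 18.8, 105.9 and 77.9 in control arrays. At day 42 it measured 2591.8, 5317.1, 2711.2 and 4888.8 in diabetic arrays, against 77.4, 20.7, 64.3 and 23.9 in control arrays. Neither of these days had any overlap, and the lowest diabetic array of day 42 was above the highest of day 28.

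Mean Acot1 signals were 786 ± 513 in diabetic and 50.6 ± 31.5 in control arrays at day 3 (SD, n = 4 each), 1370 ± 638 in diabetic and 87.7 ± 54.2 in control arrays at day 28, and 3877 ± 1427 in diabetic and 46.6 ± 28.6 in control arrays at day 42. Since several control signals lay near the bottom of the range of the array, no fold of these means is given. The lowest diabetic array was 1.78 times the highest control array at day 3, 5.40 times at day 28 and 33.5 times at day 42.

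For fitting, signals below 30.5 intensity units, the pooled 10th percentile, were set to that floor and converted to log2. On this scale Acot1 differed by 3.61 ± 0.58, 4.0 ± 0.58 and 6.31 ± 0.58 (SE, diabetic minus control) at days 3, 28 and 42. The floor was reached by 2 control arrays at day 3, 1 at day 28 and 2 at day 42, and by no diabetic array, so the size of these differences depends on it. With signals below 93.6 floored instead the difference was 2.67 at day 3 and 5.30 at day 42, and with a pseudocount of 66.9 in place of the floor it was 2.59, 3.18 and 5.08 at days 3, 28 and 42. The mean log2 level of each Acot1 control group, 5.6, 6.29 and 5.54, was below the 7.70 that a probe set had to average over all arrays to be tested. Acot1 therefore passed that filter through its diabetic arrays. All 3 Acot probe sets passed.

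Acot2, read by Y09333_at, was bright in every array and brighter in diabetic ones. At day 3 it measured 17511.0, 12050.3, 12808.0 and 8343.6 intensity units in diabetic arrays, against 7612.7, 6903.0, 5837.8 and 6488.3 in control arrays. The groups were separated narrowly, by the array at 8343.6, which is the same animal that was lowest for Acot1. At day 28 the probe set measured 11625.2, 9879.5, 7549.9 and 14526.8 in diabetic arrays, against 3376.7, 4886.5, 2550.8 and 3548.7 in control arrays. At day 42 it measured 16738.1, 15471.4, 14349.2 and 21918.4 in diabetic arrays, against 3838.0, 5166.7, 4549.8 and 4235.5 in control arrays. The groups did not overlap on either day, and control signals of both days lay below all control signals of day 3.

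The log2 differences of Y09333_at were 0.88 ± 0.21, 1.60 ± 0.21 and 1.93 ± 0.21 (SE) at days 3, 28 and 42. The ratios of mean signals, diabetic over control, were 1.89, 3.03 and 3.85.

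The shared Acot2 probe set AB010429_s_at gave dimmer signals with a like pattern. At day 3 it measured 2550.6, 1430.6, 1963.7 and 1022.0 intensity units in diabetic arrays, against 1318.3, 1180.2, 528.1 and 845.9 in control arrays. These groups overlapped. At day 28 it measured 1876.6, 1129.3, 925.5 and 2132.2 in diabetic arrays, against 528.0, 784.0, 403.7 and 474.5 in control arrays. At day 42 it measured 2076.7, 2127.5, 1954.5 and 2797.3 in diabetic arrays, against 422.1, 525.1, 617.9 and 660.2 in control arrays. All diabetic arrays were higher than all control arrays at both of these days. Its log2 differences were 0.85 ± 0.30, 1.43 ± 0.30 and 2.02 ± 0.30 (SE) at days 3, 28 and 42, each within 1 SE of those of Y09333_at.

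The probe set annotated to both genes, Y09333_g_at, differed by 0.84 ± 0.23, 1.46 ± 0.23 and 1.99 ± 0.23 (SE) at days 3, 28 and 42. These values are close to those of the Acot2 probe sets and below those of Acot1.

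**Figure D1:**
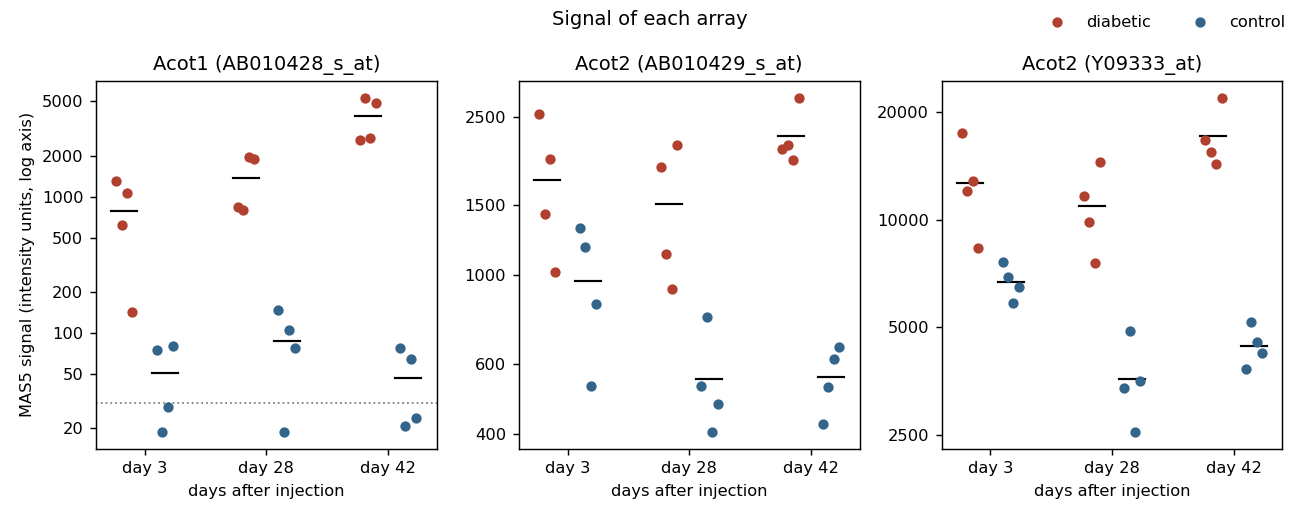
MAS5 signal (intensity units, log axes that differ between panels) of the Acot1 probe set and both Acot2 probe sets on each of the 24 arrays, with diabetic arrays left of control arrays at days 3, 28 and 42 after injection. Points are arrays, short lines group means, and the dotted line the floor of 30.5. Diabetic and control arrays overlap only for AB010429_s_at at day 3, and 5 Acot1 control arrays lie under the floor.

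Among the 5244 probe sets tested, the difference of Acot1 ranked 1, 1 and 2 by size at days 3, 28 and 42, that of Y09333_at ranked 70, 16 and 28, and that of AB010429_s_at ranked 76, 24 and 26. The median difference over all tested probe sets was -0.04, -0.06 and -0.03. The share of all tested probe sets that were higher in diabetic arrays at an adjusted p under 0.05 was 0.629% at day 3, 1.3% at day 28 and 5.8% at day 42. That share counts calls and not probe sets whose groups did not overlap, for which no share over all probe sets was computed. Since the genes were chosen for this contrast, nothing is read from the ranks or from the lack of overlap.

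**Figure D2:**
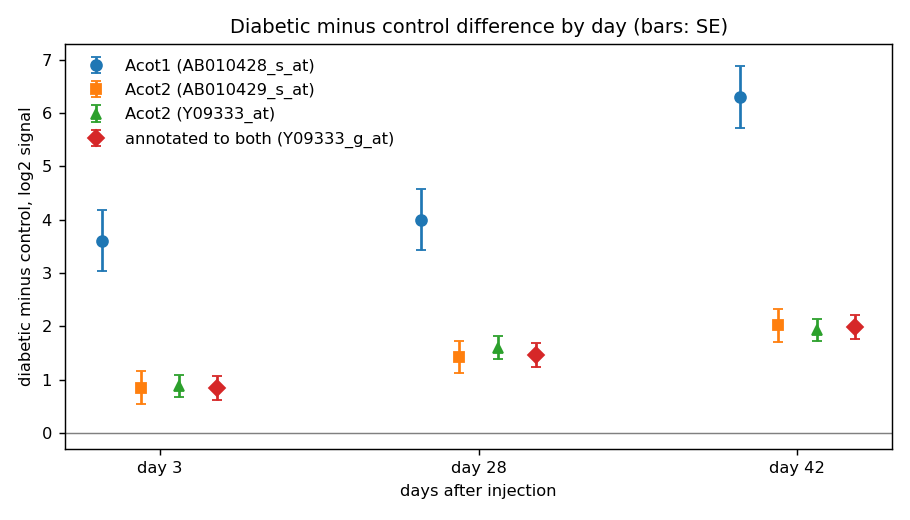
Difference in log2 signal, diabetic minus control, at days 3, 28 and 42 for the Acot1 probe set, both Acot2 probe sets and the probe set annotated to both genes. Bars are standard errors from the fit. Acot1 stands at 3.61, 4.0 and 6.31, and the other 3 lie between 0.84 and 2.02.

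Within the technical batches that contained both groups of a day the differences all had the same sign. Day 3 was the most uneven. Within the scan day that held 2 diabetic and 3 control arrays the difference was 2.39 for Acot1, 0.52 for Y09333_at and 0.14 for AB010429_s_at. Within the scan day that held 1 of each it was 5.42, 1.58 and 2.27. At day 28 the scan day with 3 diabetic and 4 control arrays gave 4.2 for Acot1, 1.55 for Y09333_at and 1.30 for AB010429_s_at. Fluidics station was also uneven: at day 3 all 4 diabetic arrays but 1 control array were run on the second station, and at day 28 all 4 control arrays but 1 diabetic array were. Within that station the Acot1 difference was 4.28 at day 3 and 3.42 at day 28.

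Summed signals of markers of other cell types differed between the groups at some days. Over 6 of 8 listed adipocyte genes the sum was 22972 to 29150 in diabetic and 12540 to 19086 in control arrays at day 3, 17980 to 23496 in diabetic and 16131 to 24204 in control arrays at day 28, and 17795 to 25819 in diabetic and 14136 to 15483 in control arrays at day 42. The groups were apart at days 3 and 42. Of these genes the lipase gene Lipe, the complement gene Cfd and Fabp4 passed at day 42 (0.91, 1.82 and 0.77, adjusted p = 0.0016, 0.0085 and 0.029, limma), the leptin gene Lep was at -0.11 (adjusted p = 0.67), and Plin1, a lipid droplet coat protein, was too dim to be tested, at 34 to 182.4.

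Over 3 of 4 atrial genes the sum was 13635 to 64931 in diabetic and 3850 to 34680 in control arrays at day 3, 15103 to 28610 in diabetic and 4517 to 30975 in control arrays at day 28, and 36488 to 49852 in diabetic and 8265 to 15523 in control arrays at day 42. The day 42 gap came with Nppa, the natriuretic peptide gene that stressed ventricle also expresses (2.30, adjusted p = 0.0017, limma), while the atrial myosin light chains Myl7 and Myl4 were at 0.30 and -0.02 (adjusted p = 0.93 and 0.996). Over 6 of 6 fibroblast genes the sum was 86346 to 117371 in diabetic and 107269 to 122071 in control arrays at day 3, 88064 to 143356 in diabetic and 92288 to 135991 in control arrays at day 28, and 38207 to 50336 in diabetic and 84671 to 92395 in control arrays at day 42, so that the groups were apart at day 42. Over 4 of 6 endothelial genes the day 42 sum was 4391 to 5891 in diabetic and 2987 to 4094 in control arrays. Both other days overlapped. Of these genes only Kdr passed at day 42 (1.83, adjusted p = 0.00017, limma). Pecam1, Vwf and Flt1 were at 0.25, -0.02 and 0.07 (adjusted p = 0.52, 0.99 and 0.92, limma). Over 2 of 4 erythroid genes the day 42 sum was 18262 to 40229 in diabetic and 36474 to 45674 in control arrays, with overlap at each day, and smooth muscle sums overlapped at each day. The part of these cell types in the Acot differences was not tested. In bulk tissue, a change in the share of a cell type and a change of RNA per cell cannot be told apart. One diabetic array of day 42 had a macrophage marker sum of 21782, while all other arrays were at or under 5895. Without it the day 42 differences were 6.45 for Acot1, 2.08 for AB010429_s_at and 2.01 for Y09333_at.

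How the levels moved over days was examined within each state. For Acot1 the order of mean log2 levels was diabetic day 42, diabetic day 28, diabetic day 3, control day 28, control day 3 and control day 42. Only the step between diabetic day 42 and day 28 had no overlap of arrays. For both Acot2 probe sets the order was diabetic day 42, day 3 and day 28, followed by control day 3, day 42 and day 28. Neighbours in that order overlapped, except control day 3 and control day 42 for Y09333_at.

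In diabetic arrays, Acot1 changed over the 3 days (adjusted p = 0.0067, limma F test). The same test passed for 26.1% of all tested probe sets. Acot1 was higher at day 42 than at day 3 by 2.63 ± 0.58 (SE, adjusted p = 0.0029, limma), a call made for 8.45% of probe sets in that direction. This call was kept in each of the 9 other settings and whichever array was left out, and with no filter the adjusted p-values were 0.0097 for the F test and 0.0044 for this step. The diabetic arrays are part of the contrast the gene was selected on, and Acot1 passed the filter through them. These tests are therefore not independent support. The step of 1.55 ± 0.58 between days 42 and 28 had an adjusted p of 0.071 (limma), and that of 1.08 ± 0.58 between days 28 and 3 one of 0.28 (limma). Among the Acot1 differences between days in diabetic arrays, only that between days 42 and 3 passed. Scan day and study day cannot be told apart in it. The diabetic animals of day 42 were also lighter than those of both other days, and the part of body weight in this difference between days was not tested.

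In diabetic arrays, Y09333_at passed the F test narrowly (adjusted p = 0.0492, limma), and the call was lost in 5 of 10 other settings and when any of 18 of the 24 arrays was left out. It was higher at day 42 than at day 28 by 0.67 ± 0.21 (SE, adjusted p = 0.033, limma), where 6.96% of probe sets were called higher. That call was lost with quantile normalization, median centring, a station block or a chip lot block, and without any 1 of 4 diabetic arrays, replicates 2 and 3 of day 28 and replicates 1 and 4 of day 42. AB010429_s_at gave 0.63 ± 0.30 for the same step (adjusted p = 0.16, limma) and did not pass the F test (adjusted p = 0.23). The pair of Acot2 probe sets therefore had like sizes and fell on either side of the threshold. As for Acot1, these diabetic arrays are part of the contrast the genes were selected on. The Acot2 tests are therefore not independent support either.

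In control arrays Acot2 fell by 1 of its 2 probe sets. Y09333_at changed over the days (adjusted p = 0.0092, limma F test), a test passed by 21.2% of all probe sets, and all other settings and arrays left out kept the call. It was lower at day 28 than at day 3 by a log2 difference of -0.93 ± 0.21 (SE, adjusted p = 0.0093, limma), where 5.38% of probe sets were called lower. Its difference between days 42 and 3 was -0.60 ± 0.21 (adjusted p = 0.053, limma). AB010429_s_at differed by -0.78 ± 0.30 between days 28 and 3 (adjusted p = 0.12, limma) and did not pass the F test (adjusted p = 0.090). Acot1, close to the floor in control arrays, gave an adjusted p of 0.51 (limma F test). In diabetic arrays the day 28 minus day 3 difference of Y09333_at was -0.21 ± 0.21 (adjusted p = 0.61, limma). Control arrays too are part of the contrast the genes were selected on, so the tests in control arrays are not independent support.

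How far the diabetic minus control difference itself differed between days is given without a test, since the genes were selected on these differences. The Acot1 difference at day 42 exceeded that at day 3 by 2.70 ± 0.82 (SE), a value that rests in part on control arrays at the floor. For Y09333_at the value was 1.06 ± 0.30, and for AB010429_s_at it was 1.17 ± 0.43.

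Acot1 and Acot2 were also compared array by array. The log2 ratio of Acot1 to Y09333_at within an array averaged -4.37 ± 1.05, -3.08 ± 0.84 and -2.20 ± 0.49 in diabetic arrays at days 3, 28 and 42, against -7.10 ± 0.71, -5.48 ± 1.31 and -6.57 ± 0.83 in control arrays (SD, n = 4 each). Signals below 30.5 were set to that floor first, so the control ratios and their spread depend in part on it. Only the change of the ratio between groups can be read, since the 2 probe sets differ in brightness for reasons of their own. The ratio of the 2 Acot2 probe sets, AB010429_s_at over Y09333_at, stayed near a constant, at -2.90, -2.89 and -2.93 in diabetic and -2.87, -2.72 and -3.01 in control arrays. Around their group means the Acot2 probe sets moved together in the 12 diabetic arrays (Pearson r = 0.951, adjusted p = 0.00042, Spearman rho = 0.916, adjusted p = 0.0058, permutation within groups) and in the 12 control arrays (r = 0.737, adjusted p = 0.019, rho = 0.748, adjusted p = 0.042, permutation). Without the 2 farthest arrays r was 0.915 in diabetic and 0.666 in control arrays. Acot1 and Y09333_at had r = 0.577 and rho = 0.441 in diabetic arrays (adjusted permutation p = 0.19 and 0.35) and r = -0.482 and rho = -0.368 in control arrays (adjusted permutation p = 0.25 and 0.35). Without the 2 farthest arrays r was 0.306 in diabetic arrays. These are among 6 relations tested, and those of Acot1 did not pass.

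**Figure D3:**
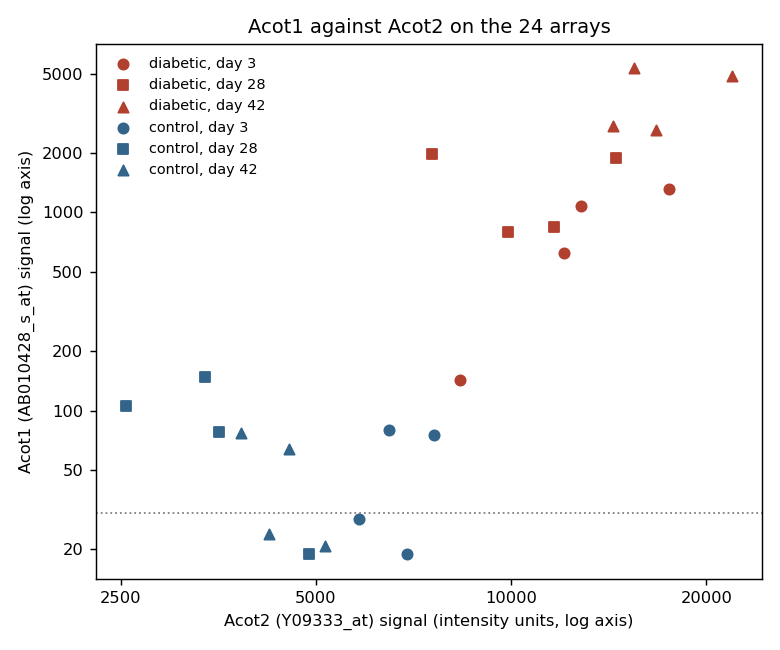
Signal of Acot1 (AB010428_s_at) against that of Acot2 (Y09333_at) on the 24 arrays, both on log axes in intensity units, coloured by state and marked by day. The dotted line is the Acot1 floor of 30.5. Diabetic arrays fill the upper right and control arrays the lower left, and the control points show no common slope.

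Within the diabetic groups, neither blood glucose nor body weight passed as a correlate of the Acot levels. Over 6 relations of deviations from group means in 12 animals, the largest was Acot1 with body weight at r = -0.321 and rho = -0.518 (adjusted permutation p = 0.92 and 0.81). Without the 2 farthest animals that r was -0.123.

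The genes whose log2 signals were most like Acot1 over the 24 arrays, by Pearson r, were Decr1 (0.916), Pik3c2g (0.901), Bex3 (0.899), Penk (0.891), Ech1 (0.889), Gstm5 (0.886), Bud31 (0.881) and Aqp7 (0.876). Decr1 and Ech1 are auxiliary enzymes for oxidising unsaturated fatty acids, and Aqp7 is a glycerol channel. For Y09333_at they were Slc27a1 (0.912), Rab11b (0.903), Ucp3 (0.903), Cbr1 (0.902), Txnip (0.895), Eci1 (0.892), Impa2 (0.891) and Cst3 (0.889). Slc27a1 is a fatty acid transport protein, Ucp3 a mitochondrial carrier protein and Eci1 an isomerase of beta-oxidation. The r values describe likeness over arrays that share the group differences, and no test was made.

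The remaining genes that handle acyl-CoA were read from lists made for this purpose, with earlier results of these data known, 1 probe set per gene. For these lists, rose and fell mean higher and lower in diabetic than in control arrays of the same day. The words do not describe a course over days. Of the other thioesterases on the array only Acot7, a cytosolic enzyme abundant in brain, was bright enough to be tested. Its brightest probe set, D88890_at, differed by 0.45 ± 0.18 at day 3 (adjusted p = 0.37, limma), 0.61 ± 0.18 at day 28 (adjusted p = 0.089) and 0.88 ± 0.18 at day 42 (SE, adjusted p = 0.0016). Its other probe sets did not give the same calls. Y09332cds_s_at, marked as shared, passed at days 28 and 42 (1.07 at both, adjusted p = 0.0068 and 0.0015), and U49694_at passed at no day (0.27, 0.05 and 0.26, adjusted p = 0.68, 0.93 and 0.39). Baat, which joins bile acids to amino acids, was below the filter.

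Of 13 tested genes that supply or bind acyl-CoA, 0, 2 and 4 rose and 0, 1 and 2 fell at days 3, 28 and 42, with medians of 0.06, -0.05 and 0.17. Among all probe sets, 0.629%, 1.3% and 5.8% were called higher and 0.305%, 0.801% and 5.63% lower at these days. At day 28 the 2 that rose became 1 to 3 and the 1 that fell 0 to 1 over other settings and arrays left out. Cd36, the fatty acid translocase, rose by 1.10 ± 0.21 at day 28 (SE, adjusted p = 0.0038, limma) and 1.39 ± 0.21 at day 42 (adjusted p = 5.4e-05). Its mean signals at days 3, 28 and 42 were 12759.6, 11117.6 and 7681.9 in diabetic arrays. In control arrays they were 8310.42, 5404.05 and 2930.42. Dbi, the acyl-CoA binding protein, rose by 0.67 ± 0.16 at day 28 and 1.01 ± 0.16 at day 42, and Slc27a1 by 1.01 ± 0.18 at day 42. Acsl6, an acyl-CoA synthetase, had log2 differences of -1.98 ± 0.34 at day 28 (SE, adjusted p = 0.0013, limma) and -2.51 ± 0.34 at day 42 (adjusted p = 1.1e-05). Acsl1, the main synthetase of heart, showed 0.10, 0.03 and -0.01 with an SE of 0.15 (adjusted p = 0.92, 0.96 and 0.99).

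Of 16 tested genes of mitochondrial import and beta-oxidation, 3, 6 and 5 rose and 0, 0 and 2 fell at days 3, 28 and 42, with medians of 0.20, 0.39 and 0.08, beside 0.629%, 1.3% and 5.8% of all probe sets called higher and 0.305%, 0.801% and 5.63% lower. Over other settings and arrays left out, the 3 that rose at day 3 became 1 to 3 and the 6 at day 28 became 3 to 6. Cpt1a, the liver-type carnitine palmitoyltransferase, rose by 0.59 ± 0.14, 0.74 ± 0.14 and 1.22 ± 0.14 (SE, adjusted p = 0.041, 0.0035 and 1.4e-06, limma). Cpt1b, the muscle type, rose by 0.36 ± 0.09 at day 28 (adjusted p = 0.046) and differed by 0.20 and 0.23 at days 3 and 42, where it did not pass. Decr1 rose by 0.98 ± 0.17, 1.33 ± 0.17 and 1.27 ± 0.17 and Eci1 by 0.75 ± 0.14, 0.80 ± 0.14 and 0.72 ± 0.14 at all 3 days, by D00569_g_at and D00729_g_at. The probe sets of these genes most like Acot1 and Acot2 were others, D00569_at for Decr1 (1.2, 1.64 and 1.65) and rc_AI170568_s_at for Eci1 (0.65, 1.00 and 0.96), and both passed at all 3 days. Another Eci1 probe set, rc_AA799541_at, gave -0.07, -0.09 and -0.01 and did not pass. Hadha, of the trifunctional protein, rose by 0.81 ± 0.14 at day 28 and 0.59 ± 0.14 at day 42. The 2 genes that fell at day 42, named after their values were seen, were Acads, for short-chain substrates, at -0.72 ± 0.20 and Echs1, the short-chain hydratase, at -1.17 ± 0.25.

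Of 11 further tested genes listed as PPAR-alpha targets, 3, 3 and 5 rose and 0, 1 and 1 fell at the 3 days. Their medians were 0.43, 0.33 and 0.76. The shares of all probe sets were the same as above, 0.629%, 1.3% and 5.8% higher and 0.305%, 0.801% and 5.63% lower. The part of PPAR-alpha in the difference of any listed gene was not tested. The 3 that rose at day 3 became 0 to 4, and the 3 at day 28 became 1 to 3, over other settings and arrays left out. Pdk4, the kinase that shuts pyruvate dehydrogenase, rose by 1.31 ± 0.32, 1.43 ± 0.32 and 3.21 ± 0.32 (SE, adjusted p = 0.044, 0.012 and 1.8e-07, limma). Its mean signals at days 3, 28 and 42 were 19831.8, 9848.35 and 12134.5 in diabetic arrays. In control arrays they were 8132, 3887.63 and 1323.4. Ucp3 rose by 1.03 ± 0.24 at day 3 and 2.13 ± 0.24 at day 42, with 0.65 ± 0.24 at day 28 (adjusted p = 0.21), all by AF035943_at. The Ucp3 probe set most like Acot2, AF030163_s_at, gave 0.89, 1.2 and 2.78 (adjusted p = 0.24, 0.036 and 6.3e-07), so the probe sets part at days 3 and 28. Txnip, a thioredoxin-binding protein, rose by 0.78 ± 0.15 at day 28 and 1.14 ± 0.15 at day 42. Pxmp2, a peroxisomal membrane protein, had log2 differences of -1.08 ± 0.15 at day 28 and -1.44 ± 0.15 at day 42 and fell.

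None of the 8 tested genes for PPAR-alpha and other nuclear receptors passed at any day in limma. Rxra, Hnf4a and Ncoa1 of the same list were below the filter and were not tested. Ppara itself measured 254 ± 86.9 in diabetic and 344 ± 96.8 in control arrays at day 3, 317 ± 31.8 in diabetic and 369 ± 115 in control arrays at day 28, and 290 ± 38.5 in diabetic and 408 ± 56.7 in control arrays at day 42 (SD, n = 4 each). Its log2 differences were -0.46 ± 0.26, -0.16 ± 0.26 and -0.49 ± 0.26 (SE, adjusted p = 0.62, 0.85 and 0.27, limma). The mRNA level of the receptor is not a measure of its activity.

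**Figure D4:**
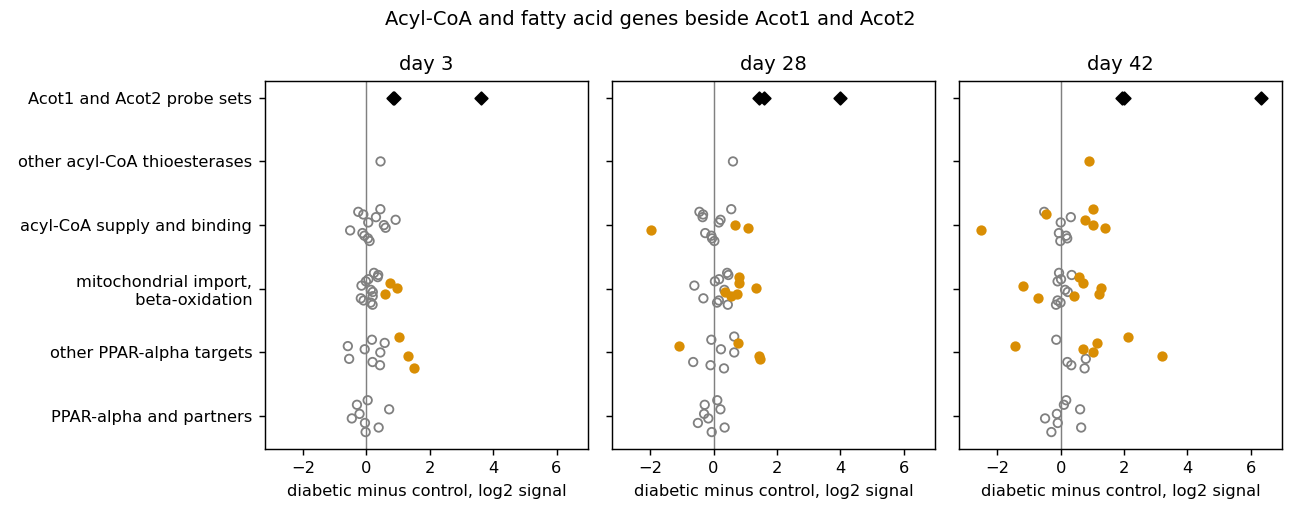
Difference in log2 signal, diabetic minus control, at days 3, 28 and 42 for the Acot probe sets (black diamonds) and for the genes of 5 lists, 1 circle per gene. Filled circles passed an adjusted p under 0.05 (limma), open circles did not, and the Acot diamonds carry no test. The Acot1 diamond lies to the right of every circle at each day, at 3.61, 4.0 and 6.31, and the furthest circle is Pdk4 at 3.21 on day 42.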

How the data were processed

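RNA of rat ventricles was hybridised to Affymetrix RG-U34A arrays, 1 array per animal. The authors deposited MAS5 signals, linear intensity values per probe set, per the submitters' processing notes. No MAS5 version was given. Trimmed of 2% at each end, array means lay between 1502.3 and 1503.0. Scan day, fluidics station and chip lot came from the deposited run-setting files. Of 8740 probe sets that are not array controls, 7006 had 1 gene symbol, 308 several and 1426 none in the platform annotation.

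Signals under 30.5, the 10th percentile of all values, were raised to it before taking log2. Probe sets averaging at or above the 40th percentile (log2 7.70) were kept, 5244 in all. Group means of all 24 arrays were fitted with limma 3.58.1 (R 4.3.3, eBayes with trend and robust, 18 residual degrees of freedom). Tests were two-sided, adjusted by Benjamini-Hochberg over all 5244, and called at an adjusted p under 0.05. Contrasts between pairs of days were an addition chosen after seeing the data. The F test of the diabetic minus control difference across days was also run, and its p-values are left out because the genes were selected on that difference. The arrays of a group are separate animals. Relations between measures used 100000 permutations within groups (scipy 1.17.1, numpy 2.4.6, pandas 2.3.3 in Python 3.11.15), and figures matplotlib 3.10.9. Scripts were tested on simulated data.

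Genes named are all Acot1 and Acot2 probe sets, in each list up to 4 passing genes by smallest adjusted p at day 28 or 42, Ppara, Pdk4, Ucp3, Cpt1b, Cd36, Acsl1 and other thioesterases, and the 8 genes most like Acot1 and most like Acot2. The members and lists were chosen with earlier results of these data known. Each listed gene is read by its probe set of highest mean. Replicate numbers were not treated as pairs of animals. Of 12 pairs with the same number, 2 had deviations correlated above 0.1, at 0.27 and 0.40. Pairs of unlike number were not compared, so this check cannot settle whether animals were matched. Alternatives changed the floor, filter, normalization, variance model, blocks and arrays used.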

Additional observations from a re-analysis of the deposited data

How the results depend on the processing

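The Acot differences between diabetic and control arrays kept their sign in every setting run, within batches too. The size for Acot1 depends on the floor. It was 2.67 at day 3 and 5.30 at day 42 with the floor at the 25th percentile, and 2.59, 3.18 and 5.08 at days 3, 28 and 42 with a pseudocount. Within batches Acot1 gave 2.39 and 5.42 in the scan days of day 3, 4.98 and 2.51 in its chip lots, and 2.43 and 4.93 in the chip lots of day 28. At day 3 Y09333_at gave 0.52 and 1.58 in scan days and 1.38 in a chip lot, and AB010429_s_at gave 0.14 and 2.27 in scan days, 1.64 in a station and 1.45 in a chip lot. The cause was not tested. These batches hold few arrays.

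The diabetic course of Y09333_at had an adjusted p of 0.069 with no filter, 0.084 with quantile normalization, 0.086 with median centring, 0.068 with plain eBayes and 0.065 with a station block, and 0.021 to 0.17 with 1 array left out. The cause was not tested. The control course of AB010429_s_at gave 0.028 to 0.28 with 1 array left out and passed without control day 3 replicate 3 or control day 28 replicate 2. Courses could not be fitted with scan day or chip lot blocks. With replicate number as a block the adjusted p-values were 0.0069 for the Acot1 course and 0.046 for that of Y09333_at in diabetic arrays, and 0.0088 for Y09333_at in control arrays. The block changed 1 call, that of Y09333_at between control days 42 and 3 (adjusted p = 0.0486).

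Differences near 0 changed sign. With 1 array left out, Acot1 between control days 42 and 3 ran from -0.32 to 0.17, and the change of its diabetic difference between days 28 and 3 from -0.29 to 0.77 (-0.48 with a station block). AB010429_s_at ran from -0.43 to 0.0089 for diabetic days 28 minus 3, and from -0.084 to 0.24 for control days 42 minus 28 (-0.023 with a station block). The cause was not tested. The correlations with animal measures that changed sign without the 2 farthest animals were 0.079, -0.054 and -0.0035. Over all probe sets, 49 calls at day 3 became 24 with median centring, 32 with plain eBayes, 20 with a scan day block, 23 with a station block, and 17 to 62 with 1 array left out. The 110 calls at day 28 became 49 with a station block. Signals near the floor limit what can be said of Acot1 in control ventricles.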
